A study of Homo sapiens with 4 samples.

Results

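The response of HCT116 cells to MP-HX was read as the log2 signal of the MP-HX array minus that of the vehicle array. It was taken for every transcript cluster, the unit that the array measures, to which the probe annotation gives 1 gene symbol. This gave 16098 of the 48226 clusters of the table, covering 14884 genes. HCT116 is an established human colorectal carcinoma line that grows as adherent epithelial cells. MP-HX is a hexane extract of the leaves of Melicope ptelefolia, a shrub eaten and used medicinally in Southeast Asia. The treated cells received 60 µg/mL for 24 h, a dose near the concentration that halved their viability, and the control cells received the DMSO vehicle for 24 h, at 0.3% by the sample label, whereas the methods give both lines the concentration of the HepG2 label. All cells grew in DMEM with fetal bovine serum. RNA of several cultures was pooled before hybridisation, so each side is 1 array with no replicate, and no p-value or error between cultures can be given for any difference below. HepG2, a hepatocellular carcinoma line, was treated for the same 24 h with 78 µg/mL and has 1 array with MP-HX and 1 with vehicle, labelled as 0.39% DMSO. Its values stand beside those of HCT116 where they differ, and line, dose and labelled vehicle concentration cannot be told apart there. An extract holds many compounds, and none of them was measured here.

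Cells under chemical stress draw on a small set of transcriptional programmes. The integrated stress response slows protein synthesis by phosphorylating eIF2-alpha and lets the transcription factor ATF4 through, which switches on DDIT3, TRIB3, SESN2 and related genes. NRF2 answers electrophiles and oxidants by inducing antioxidant enzymes, AP-1 and NF-kB drive immediate early and inflammatory genes, and metallothioneins buffer zinc and copper. A dividing cell also runs a cell cycle programme, in which E2F factors turn on replication genes in late G1 and the DREAM and MuvB complexes, with FOXM1 and B-MYB, control mitotic genes through CHR elements.

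The signal had a median of 4.33 on the MP-HX array and 4.31 on the vehicle array, with a Pearson correlation of 0.974 across the named clusters. The log2 difference was 0.00 at the median, -0.24 and 0.25 at the quartiles, and -1.45 and 1.34 at the 1st and 99th percentiles. The labelled tissue was checked on its markers. EPCAM, an epithelial adhesion molecule, had 11.07 with MP-HX and 11.08 with vehicle, and CDX2, the intestinal transcription factor, 6.46 and 6.43, whereas KRT20 (3.81 and 3.73) and CEACAM5 (3.32 and 3.67), both markers of mature colon epithelium, were below the array median. The hepatocyte gene ALB had 3.16 and 3.57 in HCT116 against 12.88 and 13.06 in HepG2. None of the 12 colon epithelium markers measured and none of the 19 hepatocyte markers was 2-fold apart in HCT116. Among 8 genes in common use as references, HPRT1 was lower, at 7.62 against 8.73, and the others were under 2-fold.

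MP-HX left 373 clusters at least 2-fold above vehicle, 2.32% of those named, and 468 at least 2-fold below, 2.91%. With each gene given by its brightest cluster, as in all that follows, 361 genes were higher (2.43% of genes) and 445 were lower (2.99%). At 4-fold these numbers were 33 and 46, and at 8-fold 9 and 1. Of the higher genes, 39 were below the array median with vehicle, compared with 11 with MP-HX.

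**Figure D1:**
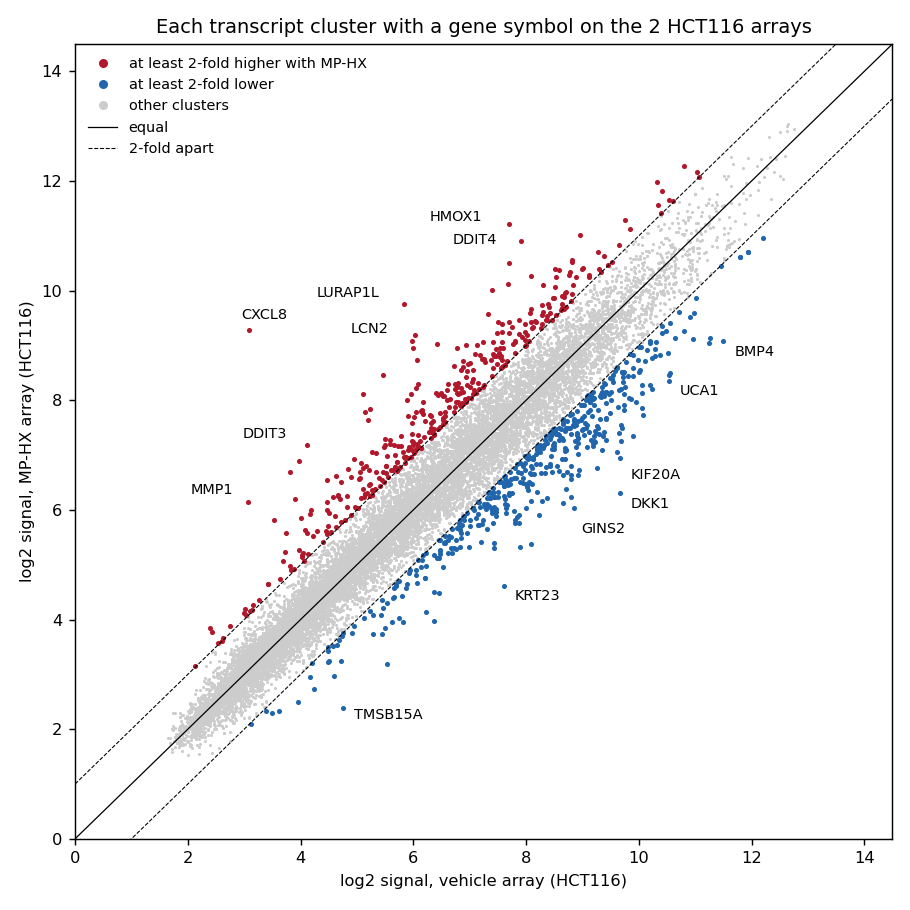
Log2 signal of each of the 16098 named transcript clusters on the MP-HX array (vertical axis) against the vehicle array (horizontal axis) in HCT116, 1 array each. The 373 clusters at least 2-fold higher are red and the 468 at least 2-fold lower are blue, and CXCL8 stands alone at 9.28 against 3.08.

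Measurements within the same arrays give a rough guide to how finely a difference can be read, although they mix noise with any response. Of the 4404 clusters that were below the array median on both HCT116 arrays, 13 were 2-fold higher and 8 were 2-fold lower, 0.477% in all, and their log2 differences had an SD of 0.28. This choice leaves out any cluster that crossed the median, which by itself narrows the spread. Clusters above the median on at least 1 array had an SD of 0.55. A further 380 genes carried a pair of clusters above the median with different values, and the log2 differences of the pair lay a median of 0.23 apart. Where the brightest cluster of such a gene was 2-fold apart (18 genes), the next cluster was on the same side in 15 and 2-fold apart the same way in 4. The gene values below are therefore values of a cluster, and a second cluster is given where a gene described here has one that differs by over 1.5-fold. The olfactory receptor genes intended as a further check had 1 named cluster, too few to use.

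CXCL8, which encodes the neutrophil-attracting chemokine interleukin 8, was furthest above vehicle. It gave 9.28 on the MP-HX array and 3.08 on the vehicle array, a 73.5-fold difference, in which the vehicle value lay under the lower quartile of its array (3.15). With signals below the array median set to that median, the log2 difference was 4.97 in place of 6.20. LURAP1L followed at 9.75 against 5.83, and HMOX1, the haem oxygenase that releases iron, carbon monoxide and biliverdin, at 11.21 against 7.70. MXD1, a partner of MAX that opposes MYC, was at 9.19 against 6.03. LCN2, the siderophore-binding protein lipocalin 2, was at 9.09 against 5.98, and the interstitial collagenase MMP1 at 6.15 against 3.07, a vehicle value that was again under the lower quartile.

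Several of the next genes are known for roles in the secretory pathway or in lysosomes. CLGN, a lectin chaperone of the endoplasmic reticulum, was at 8.11 against 5.10. TUSC3, a subunit of the oligosaccharyltransferase complex that attaches N-glycans, was at 6.89 against 3.97. LAMP3, a lysosomal membrane protein, was at 8.46 against 5.47, and CD68, a lysosomal glycoprotein best known from macrophages, at 10.01 against 7.40. The other 4 blood cell markers measured (CSF1R, CD14, LYZ and CD34) were between 0.00 and 0.14 above vehicle on the log2 scale. UPP1, a uridine phosphorylase, was at 8.96 against 6.00, the microtubule-associated protein MAP2 at 8.74 against 6.06, and IRAK2, a kinase of interleukin 1 and Toll-like receptor signalling, at 9.03 against 6.42. YPEL5 had 7.79 against 5.14 and TCP11L2 had 7.84 against 5.24. The 20 genes furthest above vehicle spanned log2 differences of 2.45 to 6.20.

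DKK1, a secreted inhibitor of Wnt signalling, was furthest below vehicle, at 6.30 with MP-HX and 9.66 with vehicle, a 10.3-fold difference. The keratin KRT23 was at 4.62 against 7.61. GINS2, a subunit of the replicative helicase, was at 6.04 against 8.85, and KIF20A, a kinesin of cytokinesis, at 6.95 against 9.67. The interleukin 17 receptor subunit IL17RB had 5.38 against 8.08, the focal adhesion protein TNS4 had 6.23 against 8.80, and the metalloprotease ADAM19 had 6.13 against 8.66. BMP4, a ligand of the TGF-beta superfamily, was at 9.08 against 11.50. Much of the remainder belongs to replication and chromatin. CDCA7 (5.32 against 7.89), MCM10 (7.06 against 9.61), UHRF1 (7.25 against 9.69), which guides maintenance DNA methylation, ESCO2 (6.38 against 8.71), a cohesin acetyltransferase, and DSCC1 (6.63 against 8.92), a clamp loader subunit, were all in this group. LMNB1, the nuclear lamin B1, was at 7.35 against 9.89, the repressor E2F8 at 6.76 against 9.25, the mitotic kinase PBK at 7.73 against 10.08 and ZNF367 at 5.91 against 8.23. CRABP2, a retinoic acid carrier, was at 7.10 against 9.35, and the neuronal calcium sensor VSNL1 at 3.97 against 6.37. TMSB15A, a thymosin, was at 2.38 against 4.75. Its MP-HX signal was in the lower quartile, and with the array median as a floor its log2 difference was -0.42 in place of -2.37.

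**Figure D2:**
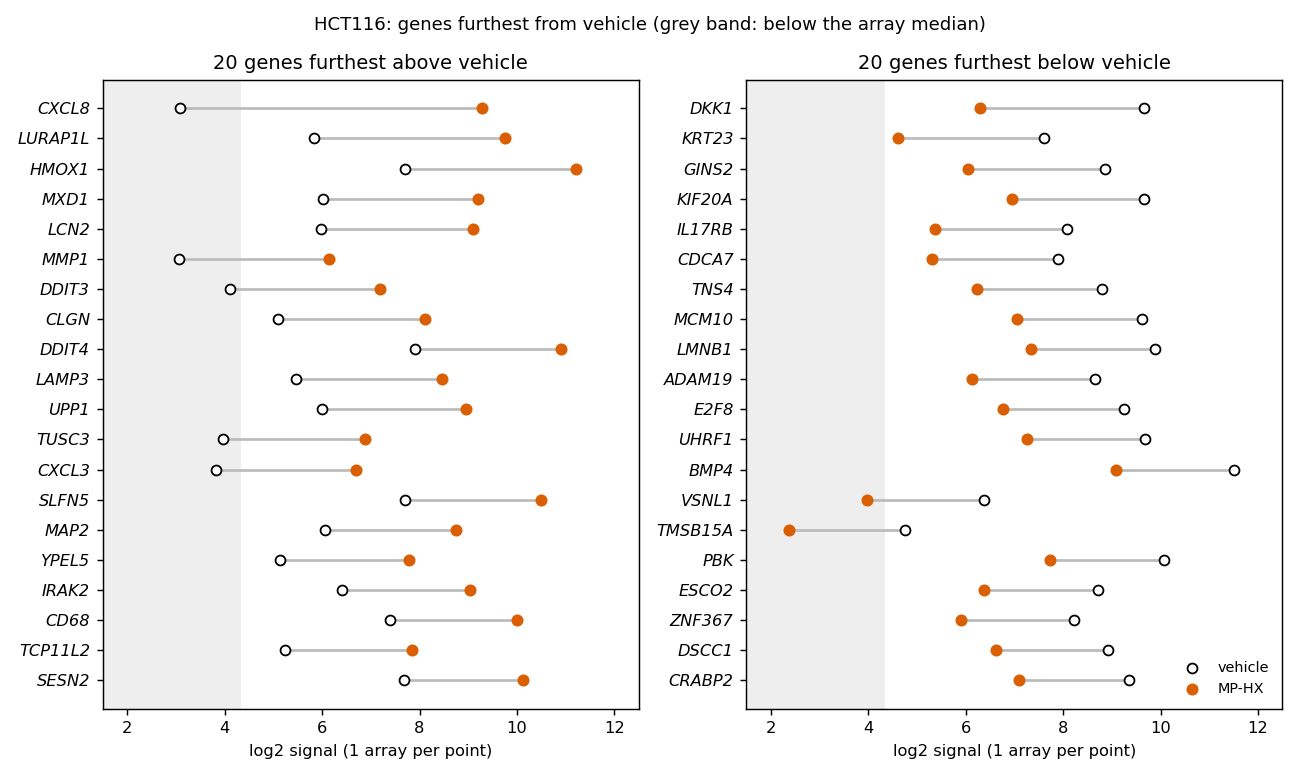
Log2 signal with vehicle (open circles) and with MP-HX (filled circles), 1 array each, for the 20 genes with the highest and the 20 with the lowest log2 difference among genes brighter than the array median on at least 1 HCT116 array. CXCL8, MMP1, DDIT3, TUSC3 and CXCL3 start in the grey band below the array median, and VSNL1 and TMSB15A end in it.

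Genes were then read in lists by function. The lists were written with earlier results of these data known, so their counts and medians are descriptions and not tests. Some genes stand in several lists, so the counts of different lists are not separate from each other. Each list is read from its measured members only, and in many lists a large part of the names was not measured. NRF2 targets had 12 measured and 18 not measured. Oxidative phosphorylation had 13 and 41, TNF family and TRAF genes 5 and 27, and kinesins 25 and 0, in the same order. The background for each count is the share of all genes, 2.43% higher and 2.99% lower, with a median log2 difference of 0.00. The lists of proliferation genes held 238 measured genes, of which 122 were at least 2-fold lower and 3 higher, with a median of -1.01. These 122 were 27.4% of all lower genes. The stress lists held 135 genes, 33 of them higher and 1 lower, and the signalling lists 201 genes, 37 higher and 9 lower. The stress and signalling genes together were thus a smaller part of the higher genes (9.14% and 10.2%) than the proliferation genes were of the lower ones.

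**Figure D3:**
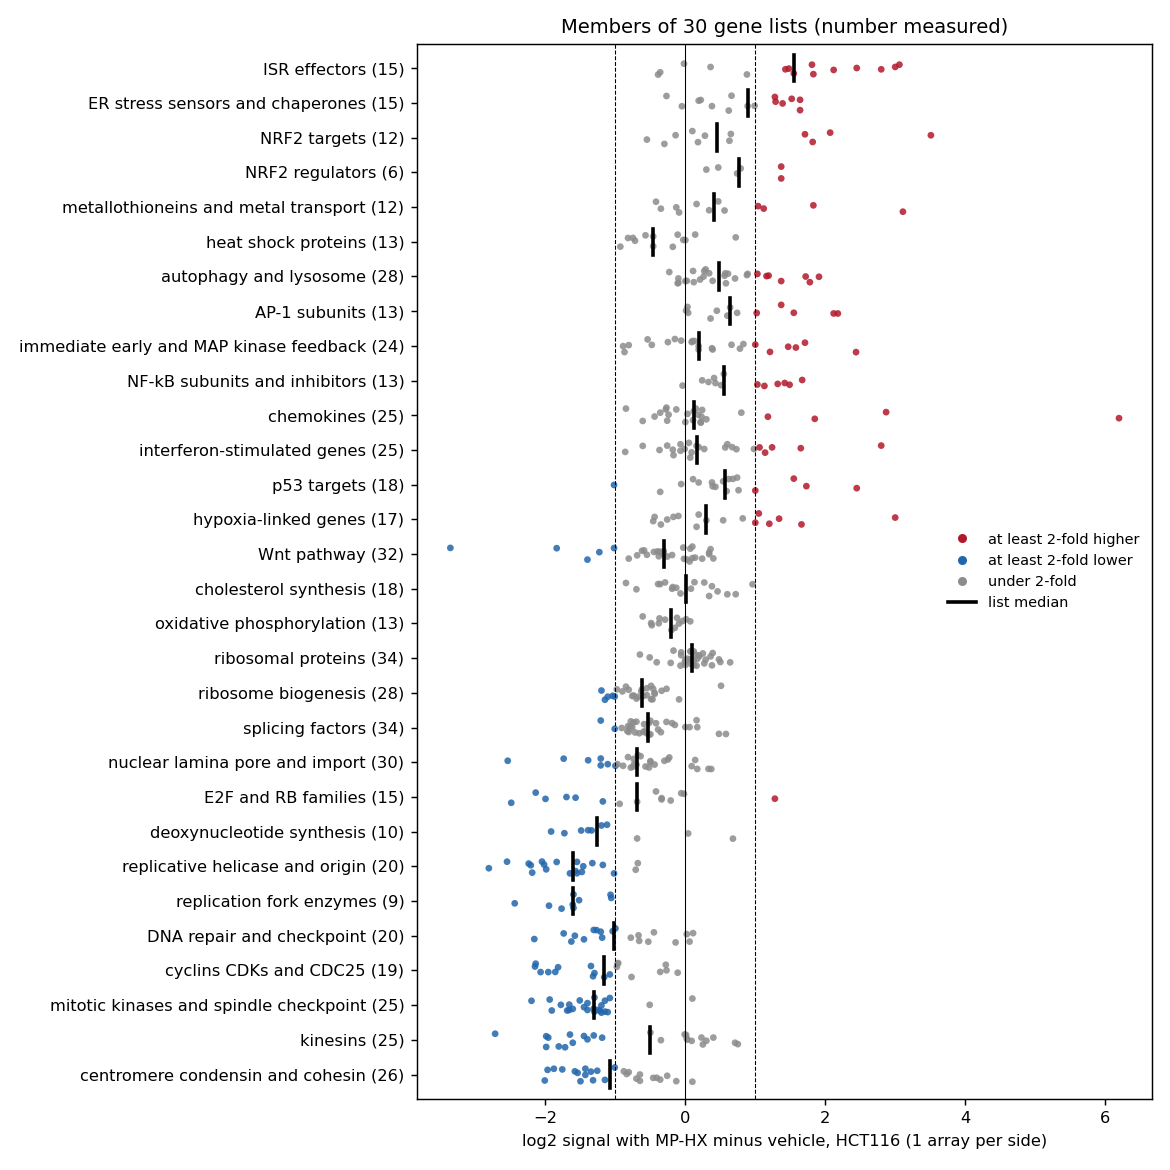
Log2 difference between MP-HX and vehicle in HCT116 (1 array per side) for each measured member of 30 gene lists, with the list median as a black bar and dashed lines at 2-fold. All 9 replication fork enzymes and 18 of 20 helicase and origin genes are below the lower line. Above the upper line are 10 of 15 genes listed as effectors of the integrated stress response, SLFN5 included.

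The effectors of the integrated stress response were the list with the highest median, 1.55, a rank that only describes a list written with earlier results known. Of its 15 genes, 10 were at least 2-fold higher and none 2-fold lower, while 3 were below vehicle. DDIT3, the transcription factor CHOP, was at 7.18 with MP-HX against 4.12 with vehicle. DDIT4, an inhibitor of mTORC1 also known as REDD1, was at 10.91 against 7.91, and SESN2, a leucine sensor upstream of mTORC1, at 10.13 against 7.68. The bZIP factor ATF3 had 8.0 against 5.88, the pseudokinase TRIB3 had 9.06 against 7.23, and SLFN5, a member of the Schlafen family, had 10.50 against 7.70. SLFN5 stands in the interferon list as well, and its place among these effectors is a choice made with earlier results known. ATF4 itself, which is controlled largely at translation, was at 11.05 against 10.17, a difference under 2-fold. The measured genes among those that ATF4 uses to supply amino acids were closer to vehicle. Of amino acid transport and synthesis, 8 genes were measured and 12 listed names were not. None of the 8 reached 2-fold, and ASNS, asparagine synthetase, was nearest at 10.00 against 9.13. Among 17 aminoacyl-tRNA synthetases, SARS1 (9.67 against 8.67) was 2-fold higher and the list median was 0.18.

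In the endoplasmic reticulum, 6 of 15 genes were at least 2-fold higher and none lower, with a median of 0.89. These included the unfolded protein sensors EIF2AK3, which encodes PERK (8.13 against 6.49), and ERN1, which encodes IRE1-alpha (8.07 against 6.55). XBP1, the factor spliced by IRE1-alpha, was at 9.44 against 8.15. The degradation adaptor SEL1L was at 10.39 against 9.0, the oxidase ERO1B at 6.80 against 5.16 and the chaperone HYOU1 at 11.12 against 9.84, although a second cluster of HYOU1 differed by 0.37 on the log2 scale. In HepG2 the list median was 0.27, with XBP1 at 9.27 against 9.45 and SEL1L at 9.66 against 9.39.

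Heat shock genes lay mostly below vehicle. Of 13 measured, none was 2-fold apart in HCT116, 10 were below vehicle, and the median was -0.46. HSPA1A, the inducible HSP70, was at 10.81 against 11.56 and its near-identical copy HSPA1B at 10.95 against 11.77, so that probes of either may read both. In HepG2 HSPA1A was at 12.71 against 10.57, HSPA1B at 12.62 against 10.43, and the list median was 0.73 with 4 genes at least 2-fold higher. HSPA6, a strictly inducible HSP70, was above vehicle in HCT116 (5.36 against 4.64) as in HepG2 (6.46 against 4.31). HSPD1, the mitochondrial chaperonin, was at 8.76 against 9.33 in HCT116, and the HSP110 relatives HSPA4 (10.00 against 10.72) and HSPA4L (8.61 against 9.54) were also below vehicle.

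Among NRF2 targets, 4 of 12 were at least 2-fold higher and none lower. Beside HMOX1 these were SRXN1, the sulfiredoxin that repairs peroxiredoxins (11.02 against 8.95), TXNRD1, thioredoxin reductase (10.25 against 8.54), and OSGIN1 (7.72 against 5.90). The remaining 8 lay within 0.65 of vehicle on the log2 scale, among them UGDH, UDP-glucose dehydrogenase, at 10.57 against 9.94. All 6 measured regulators of the pathway were above vehicle, and the small MAF protein MAFG (8.96 against 7.59) and the KEAP1-binding autophagy receptor SQSTM1 (8.80 against 7.43) reached 2-fold. The metal list had 4 of 12 genes higher. They were LCN2, MT1E (8.72 against 6.89), MT1X (12.16 against 11.04) and MT1F (8.71 against 7.67), whereas MT2A was at 10.58 against 10.02. MT1M was in the range of dim clusters in HCT116, at 3.64 against 3.17, and was at 10.30 against 4.19 in HepG2. Metallothionein genes are close copies, and cross-reading of their probes was not tested. Of aryl hydrocarbon receptor targets and drug-metabolism genes, 9 were measured and 19 listed names were not. Of the 9, 5 were above the array median on at least 1 HCT116 array. None of the 9 was higher, and GSTA2 (2.74 against 4.24) was lower, with both values below the array median.

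In the autophagy and lysosome list, 7 of 28 genes were higher and none lower, with a median of 0.48. They held both kinds of ATG8 protein, which coat the growing autophagosome: GABARAPL1 was at 8.63 against 6.72 and MAP1LC3B at 7.05 against 5.27. TFE3, a transcription factor of lysosomal genes, was at 8.60 against 6.88, the initiation factor ATG13 at 8.67 against 7.48, and the protease cathepsin L (CTSL) at 7.96 against 6.80. Adding 64 to the linear signal, which shrinks the differences of dim genes, left 3 of the 28 past 2-fold.

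All 13 AP-1 genes were above vehicle, 5 of them by 2-fold, but FOS (0.01) and FOSB (0.03) were level with it on the log2 scale. The 5 include ATF3 and MAFG, which are also counted in the lists above. JUN was at 10.27 against 8.09, JUND at 10.06 against 8.51 and JUNB at 9.82 against 8.80. Among 24 immediate early and feedback genes, 6 were at least 2-fold higher (4 with 64 added) and none lower. Of the 6, 5 encode dual-specificity phosphatases, which switch off MAP kinases. DUSP10 was at 7.64 against 5.20, DUSP1 at 9.33 against 7.75, DUSP16 at 8.25 against 6.78, DUSP8 at 7.78 against 6.57, and DUSP5 at 10.53 against 8.82, with a second cluster of DUSP5 0.61 above vehicle on the log2 scale. The early growth response factor EGR1 was at 8.19 against 9.0 in HCT116 and at 9.24 against 6.40 in HepG2.

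The NF-kB list had 6 of 13 genes higher (2 with 64 added) and none lower, with a median of 0.55. It included subunits of the non-canonical arm, NFKB2 (9.40 against 7.98) and RELB (7.51 against 6.48), and proteins that restrain or relay the signal. These were the deubiquitinase CYLD (7.83 against 6.16), TNIP1 (8.27 against 6.95), the adaptor TRAF1 (6.19 against 4.70) and the ubiquitin ligase BIRC2 (7.87 against 6.74). TNF was at 4.58 against 4.49, in a list of 5 TNF family and TRAF genes with TRAF1 alone past 2-fold. Of 25 chemokines, 4 were higher (2 with 64 added), and 12 were below the array median on both HCT116 arrays. Besides CXCL8 these were the neutrophil chemokines CXCL3 (6.69 against 3.82) and CXCL2 (7.18 against 6.00), and CCL20, a ligand of CCR6 (5.85 against 4.0). In HepG2 CXCL8 was at 6.11 against 3.46, whereas CXCL3 (3.51 against 3.21), CXCL2 (5.19 against 4.97) and CCL20 (10.05 against 9.77) lay within 0.30 of vehicle on the log2 scale.

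Receptors of cytokines were also among the higher genes. The interleukin list had 6 of 26 higher (1 with 64 added) and 1 lower, the latter being IL17RB. IL31RA was at 6.26 against 4.67 and OSMR, with which it forms the interleukin 31 receptor, at 9.88 against 8.68. IL6R was at 7.71 against 6.32, IL17RC at 6.96 against 5.87 and IL20RB at 6.73 against 5.64. In the interferon list, 5 of 25 genes were higher (1 with 64 added) and none lower, with a median of 0.16. IRF7, a master regulator of type I interferon, was at 6.70 against 5.05 and IRF1 at 7.24 against 6.00. IFIT3 was at 5.17 against 4.03 and ISG20 at 5.69 against 4.63. The fifth was SLFN5, counted above among the stress response effectors too. IRF7 was at 4.40 against 4.14 in HepG2 and IFIT3 at 3.52 against 3.45.

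HBEGF, an EGF receptor ligand, was at 7.75 against 6.18, and LRIG3 at 5.40 against 6.57, in a list of 13 with a median of -0.03. In the TGF-beta and BMP list of 16, GDF15, a circulating stress cytokine, was at 12.28 against 10.80 and SKIL, a repressor of SMAD signalling, at 7.33 against 6.19, whereas BMP4 and SMAD6 (4.09 against 5.42) were lower. In the Wnt list, 5 of 32 were lower (2 with 64 added) and none higher, with a median of -0.31. RNF43, a ligase that removes Wnt receptors, was at 7.40 against 9.24, AXIN2 at 6.00 against 7.40, LGR4, a receptor for R-spondins, at 4.65 against 5.88 and FZD2 at 5.81 against 6.83. DKK1, RNF43 and AXIN2 are known targets of beta-catenin. In HepG2, 6 of the 32 Wnt genes were lower and none higher, with DKK1 at 7.43 against 8.88, whereas AXIN2 was at 8.63 on both arrays. Of the MAX network, MXD4 was at 7.14 against 5.93 beside MXD1, and MYC at 10.13 against 10.61.

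Genes of cell death lay on both sides of vehicle. BBC3, which encodes PUMA, was at 8.07 against 6.52 and BNIP3L, a mitophagy receptor, at 10.84 against 9.64, 2 of 12 pro-apoptotic genes. BIRC5, which encodes survivin, was at 7.44 against 9.22, whereas XIAP was at 6.74 against 5.73, and with BIRC2 this made 2 of 8 anti-apoptotic genes higher and 1 lower. Of 18 p53 targets, 4 were higher and TP73 (6.14 against 7.16) was lower, with a median of 0.56. TP53INP1 was at 9.22 against 7.49, and SFN, the 14-3-3 sigma protein, at 12.07 against 11.07. In the hypoxia-linked list, 6 of 17 were higher (4 with 64 added), including NDRG1 (7.80 against 6.14), VEGFA (8.86 against 7.52) and ANGPTL4 (6.71 against 5.71). Of the glycolysis genes, many of which are known hypoxia targets, 11 were measured and 16 listed names were not. None of the 11 was higher, and LDHA was at 6.42 against 7.36. PGAM1 (5.46 against 6.62) was lower, with a log2 difference of -0.59 once 64 was added. A role of hypoxia in either list was not tested.

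Replication genes had the lowest list medians. The value on an array is that of the pooled RNA, so fewer cells in S or M phase and less RNA of these genes per cell cannot be told apart. Of 20 genes of the helicase and origin, 18 were at least 2-fold lower (15 with 64 added), all 20 were below vehicle, and the median was -1.61. The MCM2-7 ring, which unwinds DNA, is shown by 6 subunits. MCM2 was at 7.41 against 9.65, MCM3 at 8.50 against 10.55, MCM4 at 7.86 against 10.05, MCM5 at 8.03 against 9.87, MCM6 at 7.50 against 9.71 and MCM7 at 8.80 against 10.28. MCM7 was thus the closest to vehicle of the 6. The members under 2-fold were TOPBP1 (7.93 against 8.64) and CDC6 (8.91 against 9.59), the loader of the ring. In HepG2, 9 of the 20 were 2-fold lower, with a median of -0.94, and CDC6 was at 7.79 against 9.43.

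All 9 measured enzymes and adaptors of the replication fork were lower by 2-fold or more (6 with 64 added), and the list median was -1.60. WDHD1, which tethers polymerase alpha to the helicase, was at 7.26 against 9.21, the checkpoint mediator CLSPN at 6.92 against 8.69 (a dim second cluster of it differed by -0.19 on the log2 scale), the histone chaperone ASF1B at 7.32 against 8.93, the flap nuclease FEN1 at 7.32 against 8.92 and TIPIN at 6.67 against 8.27. For deoxynucleotides, 7 of 10 were lower (4 with 64 added). RRM2, the regulated subunit of ribonucleotide reductase, was at 8.13 against 10.05, RRM1 at 8.01 against 9.50, thymidylate synthase (TYMS) at 9.52 against 10.91, the serine hydroxymethyltransferase SHMT1 at 6.26 against 7.60 and deoxycytidine kinase (DCK) at 6.93 against 8.13. RRM2B, the p53-inducible subunit, was at 9.05 against 8.37. In DNA repair, 11 of 20 were lower (4 with 64 added), led by EXO1 (6.63 against 8.79), BRIP1 (6.81 against 8.55) and RAD54B (6.47 against 8.10).

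Cell cycle regulators followed. Of 19 cyclins, CDKs and CDC25 phosphatases, all 19 were below vehicle and 11 by 2-fold (9 with 64 added). CDC25A was at 6.22 against 8.37, cyclin E2 (CCNE2) at 5.30 against 7.44, cyclin A2 (CCNA2) at 8.46 against 10.53, CCNF at 7.22 against 9.18, CDK1 at 7.34 against 9.20 and cyclin B1 (CCNB1) at 7.91 against 9.73. Among the 15 genes of the E2F and RB families, MYBL2, which encodes B-MYB, was at 7.55 against 9.69, E2F2 at 5.81 against 7.81, the pocket protein RBL1 at 7.22 against 8.92 and FOXM1 at 7.50 against 9.07, whereas E2F3 was at 7.61 against 8.03. Of the genes listed as CDK inhibitors, 2 were analysed, too few to describe the class. CDKN3 was at 7.55 against 9.08 and CDKN2A at 6.13 against 6.19, and the rest are not analysed here. KDM5B, a demethylase of histone H3 lysine 4 that works with RB, was the exception, at 9.08 against 7.80 in HCT116 and at 8.33 against 8.22 in HepG2.

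Of 25 mitotic kinases and checkpoint genes, 23 were lower by 2-fold or more (16 with 64 added), and the list median was -1.31. PLK1 was at 9.04 against 11.24, the checkpoint proteins MAD2L1, BUB1 and BUB1B at 7.14 against 9.08, 7.82 against 9.73 and 7.36 against 9.02, and CDCA8 of the chromosomal passenger complex at 7.42 against 9.11. Of 25 kinesins, 12 were lower, including the spindle motors KIF11 (7.96 against 9.95), KIF18B (7.23 against 9.22), KIF20B (7.43 against 9.39), KIF15 (5.98 against 7.79) and KIF18A (7.77 against 9.49), and the other 13, with transport motors such as KIF5B (0.03) and KIF3B (-0.01), had log2 differences between -0.50 and 0.75. At the centromere, 14 of 26 were lower (8 with 64 added), among them NDC80 (6.64 against 8.65), CENPI (5.87 against 7.84), ZWINT (6.32 against 8.20), HJURP (7.87 against 9.63), CENPM (6.49 against 8.07) and KNL1 (7.36 against 8.90). In the lamina and pore list, 7 of 30 were lower, with TMPO at 7.68 against 9.42, LMNB2 at 8.33 against 9.72, NUP107 at 8.12 against 9.33, NUP155 at 9.61 against 10.72 and RANBP1 at 8.33 against 9.54.

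Chromatin enzymes were divided. Of 40, 3 demethylases were higher, namely KDM5B, KDM7A (7.59 against 5.98) and KDM6B (8.75 against 7.26), and 4 methyltransferases were lower (2 with 64 added), namely SUV39H1 (6.66 against 8.09, with a dim second cluster 0.04 apart on the log2 scale), SUV39H2 (6.60 against 7.61), EZH2 (7.71 against 9.02) and EHMT2 (7.61 against 8.66). The list median was 0.01.

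Genes for building ribosomes and for splicing were below vehicle by smaller margins. Of 28 ribosome biogenesis genes, 27 were below vehicle and 5 by 2-fold (0 with 64 added), with a median of -0.62. BOP1 was at 7.65 against 8.85, with a second cluster 0.31 below vehicle on the log2 scale, LYAR at 8.03 against 9.18, RRS1 at 7.91 against 9.02, RRP1B at 8.54 against 9.58 and NOC2L at 5.22 against 6.23. The HepG2 median of this list was 0.01. Splicing factors had a median of -0.54, with SNRPD1 (9.27 against 10.48) and SRSF1 (10.45 against 11.46) past 2-fold among 34. The 34 measured ribosomal protein genes were not part of this, with none 2-fold apart and a median of 0.10. Oxidative phosphorylation (13 genes, median -0.20) and cholesterol synthesis (18 genes, median 0.00) had none 2-fold apart either. In fatty acid metabolism, 3 of 20 were higher, namely the desaturase family member FADS3 (8.13 against 6.40), PPARA (6.72 against 5.22) and ANGPTL4.

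Epithelial and matrix genes held some of the furthest genes within quiet lists. Of 13 keratins, KRT23 and KRT80 (4.98 against 6.23) were lower, while KRT18 (10.70 against 11.20) and KRT19 (9.80 against 10.25), keratins of simple epithelia, were under 2-fold. Of 20 junction genes, the tight junction protein OCLN was higher, at 9.86 against 8.48. Of 15 matrix proteases and inhibitors, the sheddase ADAM17 (10.29 against 8.77) and TIMP1 (10.46 against 9.46) were higher beside MMP1, and ADAM19 was lower. Among 37 developmental factors, KLF9 (7.17 against 6.09) and KLF6 (9.70 against 8.70) were higher, and SOX4 (8.45 against 9.89) was lower beside FOXM1. Of the endothelial and fibroblast markers, none of 6 was 2-fold apart. Of 8 nuclear receptors, PPARA was higher, and ESR1 was at 4.66 against 4.88.

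Promoter windows were searched for the letters of motifs known from these pathways. RefSeq windows of 300 bases, from 250 before to 50 after the first listed start site, were found for 10749 of the 14884 genes. Both strands were searched, overlaps between motifs were allowed, and a match is a description of the letters and not a bound site. The E2F letters were TTTCGCG and TTTGGCG, the CHR letters TTTGAA, and the AP-1 and NF-kB letters TGANTCA and GGNNTTTCC. In the windows of the 350 lower genes with one, E2F letters were in 12.9%, against 4.18% of all measured genes and 2.85% of the 281 higher genes. CHR letters were in 22.6%, 11.8% and 8.54%, and CCAAT in 50.3%, 36.0% and 40.9%, in the same order. AP-1 letters were in 8.90% of the windows of higher genes, 5.92% of all and 1.71% of lower genes, and NF-kB letters in 10.3%, 6.67% and 6.57%. Among genes brighter than the array median the shares were 4.87% for E2F, 9.72% for CHR, 4.95% for AP-1 and 6.58% for NF-kB. Of the other letters searched, the antioxidant response element TGACNNNGC was in 17.8% of higher, 14.7% of all and 12.6% of lower windows, the ATF4 and CHOP composite TGATGNAAN in 2.49%, 2.24% and 1.71%, the metal response element TGCGCNC in 29.2%, 26.8% and 35.4%, and the xenobiotic element TNGCGTG in 6.05%, 6.79% and 8.29%. Over all 27305 RefSeq promoters of the table the shares were 3.22% for E2F, 15.4% for CHR, 35.7% for CCAAT, 7.76% for AP-1, 6.26% for NF-kB, 13.6% for the antioxidant element, 3.67% for the composite, 5453 of the 27305 for the metal element and 5.51% for the xenobiotic element. By list, E2F letters were in 12 of 16 windows of helicase and origin genes, CHR letters in 12 of 21 of mitotic kinases and checkpoint genes and in 10 of 21 of kinesins, and NF-kB letters in 9 of 19 of chemokines, most of which were not 2-fold higher. In other lists, E2F letters were in 1 of 8 windows of replication fork enzymes and 1 of 9 of deoxynucleotide synthesis. They were in 2 of 14 of cyclins and CDKs, 1 of 18 of DNA repair genes and 7 of 13 of the E2F and RB families. CHR letters were in 1 of 18 of DNA repair genes. The antioxidant element was in 2 of 9 windows of NRF2 targets. The composite was in 2 of 14 of integrated stress response effectors and 6 of 14 of aminoacyl-tRNA synthetases.

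**Figure D4:**
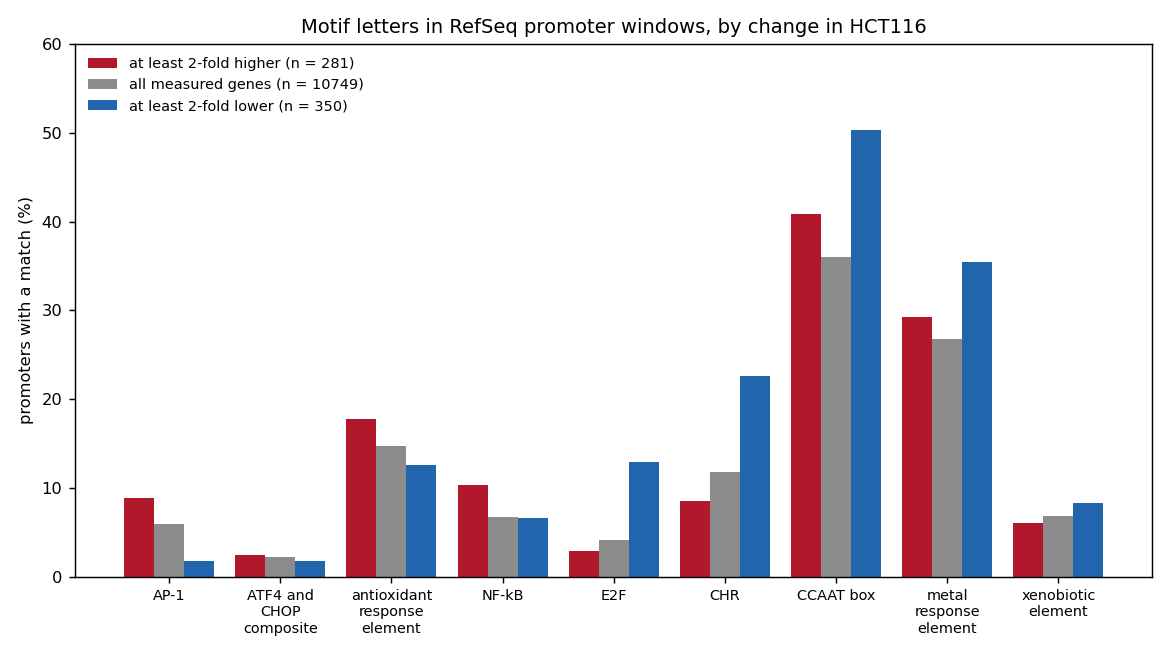
Share of RefSeq promoter windows (300 bases, in percent) that hold the letters of each motif on either strand, for the 281 genes at least 2-fold higher with MP-HX in HCT116, all 10749 measured genes with a window, and the 350 genes at least 2-fold lower. E2F, CHR, CCAAT, metal element and xenobiotic element letters are most frequent in the lower genes. AP-1, NF-kB, antioxidant element and ATF4 and CHOP composite letters are most frequent in the higher genes.

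The windows of 3 higher chemokines are shown because they carry NF-kB letters at nearly the same distance before the start site. They are from GRCh38.p14, written 5′ to 3′ along the gene, with the NF-kB letters and, in CXCL8, the AP-1 letters in capitals. In CXCL8 the AP-1 letters begin at -137 and the NF-kB letters at -91 from the start site. In CXCL3 and CXCL2 NF-kB letters begin at -78 and -77, and again at -53 in both.
CXCL8, chr4:73740319-73740618, + strand: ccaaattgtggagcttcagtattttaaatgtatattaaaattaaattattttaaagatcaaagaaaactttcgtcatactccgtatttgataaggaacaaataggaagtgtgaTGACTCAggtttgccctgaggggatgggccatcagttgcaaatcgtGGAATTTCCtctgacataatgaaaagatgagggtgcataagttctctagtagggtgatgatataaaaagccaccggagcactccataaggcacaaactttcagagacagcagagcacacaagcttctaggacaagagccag
CXCL3, chr4:74038640-74038939, - strand: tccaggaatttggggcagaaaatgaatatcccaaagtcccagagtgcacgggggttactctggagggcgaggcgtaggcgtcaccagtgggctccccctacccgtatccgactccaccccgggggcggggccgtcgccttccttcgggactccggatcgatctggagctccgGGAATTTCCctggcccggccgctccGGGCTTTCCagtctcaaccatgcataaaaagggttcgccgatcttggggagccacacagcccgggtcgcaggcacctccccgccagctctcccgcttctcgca
CXCL2, chr4:74099146-74099445, - strand: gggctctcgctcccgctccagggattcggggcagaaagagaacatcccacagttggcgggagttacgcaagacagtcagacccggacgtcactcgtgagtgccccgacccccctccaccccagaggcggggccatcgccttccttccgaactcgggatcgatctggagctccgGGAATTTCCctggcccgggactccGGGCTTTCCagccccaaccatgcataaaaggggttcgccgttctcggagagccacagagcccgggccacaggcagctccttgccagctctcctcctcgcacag

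The windows of 3 lower genes show the letters of the cell cycle programme. MCM6 holds 2 runs in which TTTGGCG overlaps TTTCGCG read on the other strand, beginning at -152 and -90 (E2F letters in capitals). PLK1 holds CHR letters at -29 and CCAAT at -73, and CDK1 holds CHR letters at -161, CCAAT at -150 and E2F letters at 19 after the start site (all in capitals). The windows are from GRCh38.p14 and follow the gene's strand.
MCM6, chr2:135876394-135876693, - strand: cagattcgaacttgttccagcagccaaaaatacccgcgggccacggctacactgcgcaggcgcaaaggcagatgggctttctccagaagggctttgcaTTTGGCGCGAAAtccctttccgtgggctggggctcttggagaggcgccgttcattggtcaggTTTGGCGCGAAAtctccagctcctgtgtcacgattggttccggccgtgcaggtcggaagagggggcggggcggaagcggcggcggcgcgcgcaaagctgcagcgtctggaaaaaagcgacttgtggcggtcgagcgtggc
PLK1, chr16:23678639-23678938, + strand: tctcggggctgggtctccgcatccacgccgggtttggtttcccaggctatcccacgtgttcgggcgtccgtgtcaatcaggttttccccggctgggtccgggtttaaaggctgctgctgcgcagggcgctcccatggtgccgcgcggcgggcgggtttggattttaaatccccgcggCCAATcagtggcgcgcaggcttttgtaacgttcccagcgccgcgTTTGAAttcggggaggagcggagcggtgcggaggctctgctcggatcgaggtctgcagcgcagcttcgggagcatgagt
CDK1, chr10:60778081-60778380, + strand: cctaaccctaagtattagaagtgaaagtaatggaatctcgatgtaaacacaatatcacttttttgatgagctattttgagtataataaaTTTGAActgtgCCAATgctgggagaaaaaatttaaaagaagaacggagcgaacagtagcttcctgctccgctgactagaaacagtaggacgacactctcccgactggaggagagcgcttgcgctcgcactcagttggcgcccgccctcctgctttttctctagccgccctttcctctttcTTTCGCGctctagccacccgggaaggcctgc

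Long noncoding RNAs past 2-fold were mostly on the higher side. Of 12694 protein-coding clusters, 2.50% were higher and 3.37% lower, whereas of 1595 long noncoding RNA clusters 26 (1.63%) were higher and 7 (0.439%) lower. 742 of the 1595 were above the array median, and these held all 26 of the higher ones. LINC00622 was at 5.81 with MP-HX against 3.52 with vehicle, CBR3-AS1 at 6.55 against 4.46 and MIR22HG, the host transcript of miR-22, at 6.74 against 4.84. FLJ42627 was at 7.20 against 5.59, LINC00963 at 8.70 against 7.27 and ZFAS1, which hosts small nucleolar RNAs, at 11.82 against 10.41. On the lower side UCA1, a transcript first described in bladder cancer, was at 8.36 against 10.53, with a second cluster 0.25 below vehicle on the log2 scale, and at 8.28 against 8.05 in HepG2. PRKG1-AS1 (3.25 against 4.71), LINC01963 (6.10 against 7.25) and SSTR5-AS1 (4.90 against 5.94) were the others of the rule.

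Of 1236 microRNA clusters, 14 were higher (1.13%) and 11 lower (0.890%), of which 11 and 9 were above the array median. A cluster reads the gene or its precursor and not the mature strand. 1 mature sequence is printed for each microRNA gene described below that has an entry used here, from RefSeq, with the seed, bases 2 to 8, in capitals, to show which target sites it would read. No seed is shared among them, and MIR378D2 and MIR3143 are named only.
Higher with MP-HX, hsa-miR-2909: gUUAGGGCcaacaucucuugg
hsa-miR-3189-3p: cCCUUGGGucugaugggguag
hsa-miR-635: aCUUGGGCacugaaacaaugucc
hsa-miR-1185-5p: aGAGGAUAcccuuuguauguu
hsa-miR-200c-3p: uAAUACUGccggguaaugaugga
hsa-miR-3671: aUCAAAUAaggacuagucugca
Lower with MP-HX, hsa-miR-3127-5p: aUCAGGGCuuguggaaugggaag
hsa-miR-891a-5p: uGCAACGAaccugagccacuga
hsa-miR-1323: uCAAAACUgaggggcauuuucu
hsa-let-7d-5p: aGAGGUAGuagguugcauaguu

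MIR2909 was at 10.56 against 8.81, with a second cluster 0.45 above vehicle on the log2 scale, while AATF, in whose span it lies, was at 10.63 against 10.77. MIR3189, which lies within GDF15, was at 8.56 against 6.84, beside 12.28 against 10.80 for GDF15. MIR635 was at 5.57 against 4.12, MIR1185-2 at 6.69 against 5.33 and MIR3671 at 4.64 against 3.42. MIR200C, known for keeping epithelial identity by repressing ZEB factors, was at 6.69 against 5.46 and below the array median in HepG2, at 3.09 against 3.17. Among those lower, MIR3127 was at 3.84 against 5.49 while CNNM4, which spans it, was at 7.02 against 7.08. MIR378D2 was at 4.95 against 6.53, MIR891A at 6.28 against 7.70, MIR1323 at 3.24 against 4.50, MIR3143 at 7.91 against 8.99 and MIRLET7D, of the let-7 family, at 5.82 against 6.90. 11 of the 14 small snaR clusters were at least 2-fold lower, with SNAR-H at 7.27 against 9.15. These genes are near-identical copies, and several of their clusters hold the same values.

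The HCT116 response was also set beside HepG2 gene by gene. Of the 350 higher genes above the array median, 138 were at least 2-fold higher in HepG2 too, beside 3.18% of all genes there, and 71 were within 0.30 of vehicle on the log2 scale. Of the 438 lower genes above the median, 147 were 2-fold lower in HepG2, beside 2.26%, and 111 were within 0.30. The share of all genes within 0.30 of vehicle in HepG2 was not counted, so the 71 and 111 have no background beside them. With 1 array per side, the difference between the lines has no test. Among those near vehicle in HepG2, the receptor NRP1 was at 8.22 against 6.05 in HCT116 and 6.61 against 6.53 in HepG2, and the synaptic immediate early gene ARC at 7.79 against 6.04 and 5.56 against 5.60. BSPRY was at 8.85 against 7.09 in HCT116, and at 4.71 against 4.89 in HepG2. TP53INP1 was at 8.28 against 8.22 in HepG2. On the lower side the neuropeptide NMU was at 6.57 against 8.79 in HCT116 and 3.79 against 3.84 in HepG2, and the hyaluronan synthase HAS3 at 6.17 against 8.28 and 5.37 against 5.42. The adhesion receptor ADGRF1 was at 6.03 against 8.0 in HCT116, and at 3.83 against 4.03 in HepG2. CRABP2 was at 3.74 against 3.98 in HepG2. NMU, ADGRF1 and CRABP2 were thus at or below the array median in HepG2 with vehicle and with MP-HX, while HAS3 was above it.

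**Figure D5:**
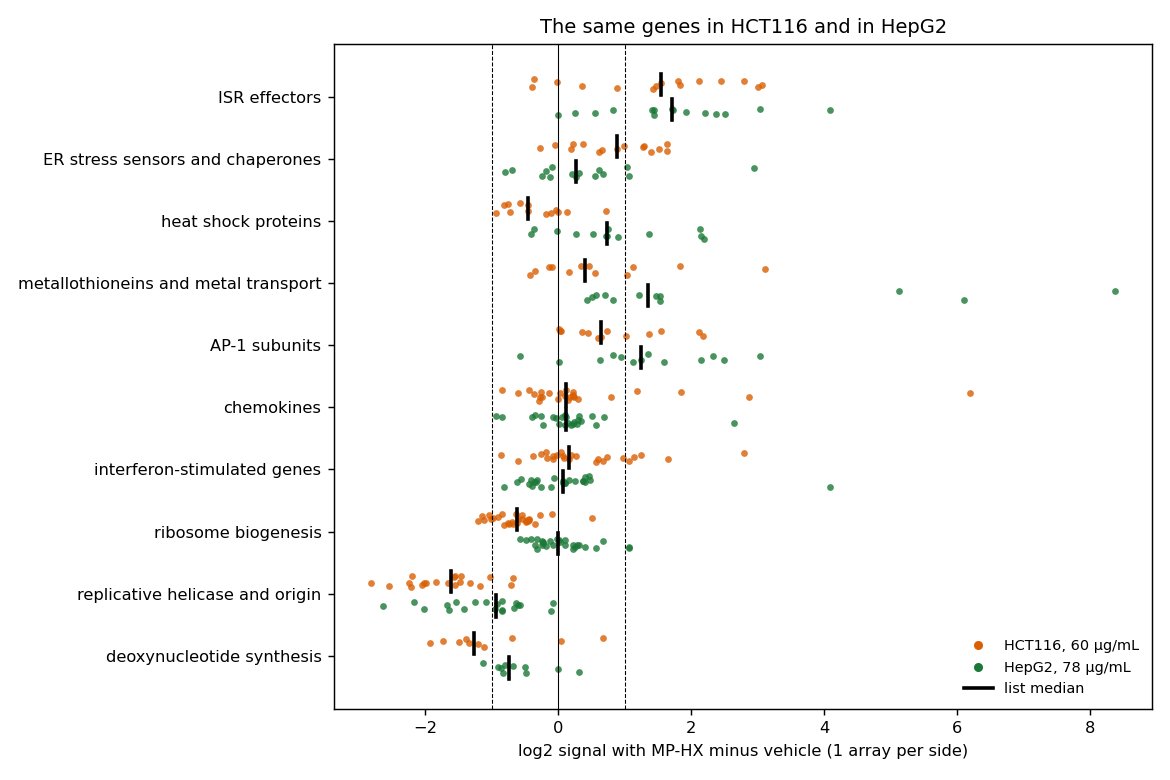
Log2 difference between MP-HX and vehicle for the members of 10 gene lists in HCT116 (60 µg/mL, orange) and HepG2 (78 µg/mL, green), 1 array per side, with list medians as black bars. Heat shock genes have medians of -0.46 in HCT116 and 0.73 in HepG2, and ribosome biogenesis genes -0.62 and 0.01.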

How the data were processed

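RNA of HCT116 cells was hybridised to Affymetrix Human Gene 2.0 ST arrays, 1 array per group, and the authors deposited the log2 value of each transcript cluster, rounded to 2 decimals. GCOS, Expression Console and then Transcriptome Analysis Console appear in the submitters' processing notes. How the arrays were normalized is not given in the sources read for this purpose. The number of arrays limits the precision. The table has 4 columns of values, and 0 went unused. The log2 difference is MP-HX minus vehicle as deposited, counted at the 2-fold threshold of the methods, with no test. Values are probe signals, so levels are not compared between genes. A table of platform annotation named 16098 clusters with 1 symbol, and 32128 stay unnamed here. A gene is its brightest cluster over the 4 arrays. The design assumed olfactory receptors as a check of noise, for which too few were named.

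The 56 gene lists, of which 53 had the 3 measured members needed for a median, and the named genes were chosen with earlier results of these data known. Named genes were the 20 furthest each way among genes above the array median, up to 6 members per list and any member 2-fold against its list, genes named in the study's text, up to 6 microRNA and 6 long noncoding RNA genes each way, and genes 2-fold apart opposite ways in the lines. Other list members, the genes near vehicle in HepG2 and the promoters shown were chosen after their values were seen. RefSeq GRCh38.p14 gave names, gene types, spanning genes and sequences. Counting was tested on simulated data with known differences. Python 3.11.15, pandas 2.3.3 and numpy 2.4.6 were used. Alternatives were other thresholds, quantile normalization, centring, 64 added to the linear signal, a filter on dim clusters, all clusters and other rules for genes with several clusters.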

Additional observations from a re-analysis of the deposited data

Results flagged for a closer look

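Of 14884 genes, 6 were at least 2-fold apart in opposite directions in the lines, a difference that was not tested with 1 array per side. The cell cycle regulator RGCC had a log2 difference of -1.45 in HCT116 (4.76 against 6.21) and 2.13 in HepG2 (6.20 against 4.07). DHRS3, a retinal reductase, had -2.04 (5.76 against 7.80) and 1.29 (8.32 against 7.03). MIR3127 had -1.65 and 1.14 (4.73 against 3.59 in HepG2), and BOP1 had -1.20 and 1.07 (8.09 against 7.02 in HepG2). IL1RAP, the shared interleukin 1 receptor subunit, had 1.03 in HCT116 (5.42 against 4.39) and -1.41 in HepG2 (5.34 against 6.75). KRTAP1-5 had -1.21 and 1.68, with both HCT116 values (2.96 and 4.17) below the array median. With 64 added to the linear signal, DHRS3 stayed past 2-fold in HCT116, at -1.28. The HCT116 differences of BOP1 (-0.99), RGCC (-0.6), MIR3127 (-0.48), IL1RAP (0.33) and KRTAP1-5 (-0.19) were then under 2-fold. A second cluster of BOP1 was at -0.31 in HCT116. The heat shock list had medians on opposite sides, -0.46 and 0.73.

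Clusters without a gene symbol also differed from vehicle in HCT116, 445 of the 32128 at least 2-fold higher and 439 lower. Among those brighter than the array median, cluster 16998044 had a log2 difference of 3.51 and cluster 17009670 of 3.48, and cluster 17100659 had -4.80 and cluster 17005865 -4.51. The last was at 7.27 against 11.78 in HCT116 and at 8.11 against 11.35 in HepG2, further from vehicle than DKK1, and its gene is not named here.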

How the results depend on the processing

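The counts of 373 higher and 468 lower clusters became 1320 and 1383 at 1.5-fold, 93 and 119 at 3-fold, 148 and 203 once 64 was added to the linear signals, and 818 and 907 over all clusters. Quantile normalization (362 and 485), centring on the median difference (373 and 468), the filter on dim clusters (360 and 460) and 1 cluster per gene (361 and 445) stayed within 1.5 times. Of 53 list medians, 52 moved by less than 0.37, the robust SD of all log2 differences, with 64 added, the exception being deoxynucleotide synthesis (-0.88 for -1.27). Of the 8 medians past 2-fold, 4 stayed so with 64 added, while centromere genes moved from -1.08 to -0.73, DNA repair from -1.02 to -0.70, cyclins from -1.16 to -0.97 and deoxynucleotide synthesis as above, and all 8 stayed so under quantile normalization, the mean over clusters or the filter. The medians that changed sign were at most 0.08 in size, 2 with the filter and 1 with quantile normalization. With 64 added, counts of 1 to 3 members past 2-fold also fell to 0 or 1 in lists such as anti-apoptotic genes (2 higher to 0), matrix proteases and fatty acid metabolism (3 higher to 1 in both), developmental factors (2 higher to 0), and splicing factors and keratins (2 lower to 1 in both). Higher effectors of the integrated stress response went from 10 to 9, and higher endoplasmic reticulum genes from 6 to 5. Higher AP-1 genes went from 5 to 4, and higher metal genes and p53 targets from 4 to 3. Lower lamina and pore genes went from 7 to 6. With genes below the array median left out, the metallothionein list had a median of 1.04 and the interferon list 0.58. Genes near vehicle in HepG2 became 25 for 71 on the higher side and 42 for 111 on the lower with 64 added. Of 347 named genes, 1 changed sign, LYZ (0.08 to -0.05 with the mean over clusters), and of 214 that were 2-fold apart 137 stayed so with 64 added and 210 with quantile normalization, since adding a constant shrinks the differences of dim genes. No paired analysis was possible because each group has 1 array, and for the same reason no replicate could be left out. Signal near background limits the size of differences such as that of CXCL8.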
